A study of Mus musculus with 8 samples.

Results

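The islands described here are those whose start lies in 3 windows of the mouse genome build mm9 that hold clustered KRAB zinc finger genes: chromosome 2 from 174.5 to 178 Mb, chromosome 4 from 144.5 to 147.5 Mb and chromosome 13 from 65 to 68 Mb. An island is a stretch of the genome in which ChIP reads clustered above a control library. Of 426082 islands in the 4 anti-Brdt lists, 1672 started in these windows. They were 232 of 36615 in wild-type spermatocytes, 402 of 74968 in wild-type round spermatids, 392 of 112671 in BD1del spermatocytes and 646 of 201828 in the BD1del round spermatids. The rule uses position and no measured value, but the windows were chosen with earlier results of these data known. Each window was set against the 3 Mb on either side of it.

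Brdt was profiled by ChIP-seq with a rabbit antibody in 2 kinds of male germ cell, spermatocytes (in meiosis) and round spermatids (after it), from wild-type (WT) C57BL/6 mice and from mice in which the first bromodomain of Brdt is deleted (genotype Brdt BD1del). The WT chromatin came from pooled fractions of 10 mice and was digested by MNase to about 200 bp. Cells of both genotypes were separated on a BSA gradient. For BD1del, strain, animal number and preparation of chromatin are not given in the sources used here. There were 8 libraries, an anti-Brdt ChIP and an input for every combination of stage and genotype, so each group had 1 library and no replicate error. No comparison of stages or genotypes below has a test between groups. Every interval is a 95% Clopper-Pearson (exact) one that covers only counting error, and neighbouring islands are not independent.

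Brdt belongs to the BET family of proteins, whose bromodomains bind acetylated histone tails. It is made in the testis, acts in the gene programme of meiosis and in the compaction of the spermatid genome, and its first bromodomain is the one known for binding acetylated histone H4. KRAB zinc finger proteins are DNA-binding repressors that recruit TRIM28 through their KRAB domain, and many of them silence retrotransposons. Their genes arose by repeated tandem duplication, so neighbouring copies resemble each other closely and many lie in heterochromatin marked by trimethylated lysine on histone H3.

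The genes of the clusters were read from RefSeq by their order along the chromosome, since the annotation is on GRCm38.p6 and the islands are on mm9. Which island lies on which gene was therefore not analysed here. Between Edn3 and Phactr3 on chromosome 2 the table lists 32 protein-coding genes, of which 9 have a Zfp symbol and most of the others are predicted Gm genes. Between Tnfrsf8 and Miip on chromosome 4 it lists 19, of which 16 have a Zfp symbol. Between Nlrp4f and Mtrr on chromosome 13 it lists 46, of which 25 have a Zfp symbol, and Rsl1, a KRAB zinc finger repressor of sex-limited liver genes, is among the remainder.

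Promoters of these genes, taken as the 250 bases before and 50 after the annotated start, were mostly near copies of each other on chromosome 2 and less often so on chromosomes 4 and 13. Identity was computed as the share of the 300 bases left after subtracting substitutions, insertions and deletions. On chromosome 2, 26 of the 31 genes with a promoter in the table had another gene of the cluster at 90% identity or more, and the median of the best identity was 96.0%. On chromosome 4 the same held for 3 of 14 genes, with a median of 89.0%, and on chromosome 13 for 7 of 36, with a median of 72.0%. Among the 20 genes on each side of the landmarks, none of the 32, 36 and 36 with a promoter reached 90%, and the medians were 51.8%, 50.8% and 50.3%.

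The following sequences show how alike the copies in each cluster can be. Each is the 250 bases before the start in RefSeq on GRCm38.p6, 5′ to 3′ on the strand of the gene, with capitals at bases that differ from, or are missing in, the other member of the pair in 1 alignment of both. Their coordinates cannot be compared with the mm9 coordinates of the islands. On chromosome 2 the whole promoter of Gm4724 is identical over 300 bases to those of Gm2026, Gm14308 and Gm14434, and 16 edits separate its printed part from that of Gm14440.
Gm4724, chr2:175435778-175436027, minus strand: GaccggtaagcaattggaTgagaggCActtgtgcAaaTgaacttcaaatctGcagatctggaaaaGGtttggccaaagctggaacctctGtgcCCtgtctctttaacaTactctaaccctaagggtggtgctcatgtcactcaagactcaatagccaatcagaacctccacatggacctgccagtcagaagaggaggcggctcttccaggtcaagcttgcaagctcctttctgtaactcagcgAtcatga
Gm14440, chr2:175274875-175275124, plus strand: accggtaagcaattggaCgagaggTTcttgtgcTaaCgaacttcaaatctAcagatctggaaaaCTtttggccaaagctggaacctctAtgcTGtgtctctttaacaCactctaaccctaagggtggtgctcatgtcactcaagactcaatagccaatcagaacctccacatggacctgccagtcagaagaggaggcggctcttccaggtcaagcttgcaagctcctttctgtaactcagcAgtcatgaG
On chromosome 4 the promoters of Rex2 and Zfp600, a pair of KRAB zinc finger genes, differ by 2 edits.
Rex2, chr4:147021600-147021849, plus strand: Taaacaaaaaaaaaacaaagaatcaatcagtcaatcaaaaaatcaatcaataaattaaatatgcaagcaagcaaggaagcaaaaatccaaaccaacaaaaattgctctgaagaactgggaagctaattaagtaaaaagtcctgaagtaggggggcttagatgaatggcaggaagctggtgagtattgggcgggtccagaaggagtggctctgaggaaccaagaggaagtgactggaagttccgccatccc
Zfp600, chr4:146156577-146156826, plus strand: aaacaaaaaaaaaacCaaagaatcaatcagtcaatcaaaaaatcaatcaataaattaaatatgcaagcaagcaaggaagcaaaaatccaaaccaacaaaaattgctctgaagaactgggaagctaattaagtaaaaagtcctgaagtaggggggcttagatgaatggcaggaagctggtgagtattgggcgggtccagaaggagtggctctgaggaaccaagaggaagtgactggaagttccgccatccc
On chromosome 13 the closest pair, the predicted genes Gm46425 and Gm31714, differs by 12 edits.
Gm46425, chr13:65950339-65950588, plus strand: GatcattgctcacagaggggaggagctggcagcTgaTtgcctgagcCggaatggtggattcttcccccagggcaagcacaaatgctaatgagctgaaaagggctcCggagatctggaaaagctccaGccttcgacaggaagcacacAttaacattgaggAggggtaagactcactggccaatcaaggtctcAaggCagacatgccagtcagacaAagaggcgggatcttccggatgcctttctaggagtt
Gm31714, chr13:65415123-65415372, minus strand: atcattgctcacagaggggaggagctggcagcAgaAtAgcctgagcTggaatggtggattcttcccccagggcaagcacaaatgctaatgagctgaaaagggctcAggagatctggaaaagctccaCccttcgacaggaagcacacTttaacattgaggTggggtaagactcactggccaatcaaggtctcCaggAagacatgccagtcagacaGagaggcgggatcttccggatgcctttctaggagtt

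Across the 4 lists, islands held 4506707 to 7310429 ChIP reads and 7147741 to 10905618 control reads. The scaling of the deposited folds implies a control library 1.79 to 5.64 times as deep as the ChIP library, though library totals were not known. Over all autosomes islands covered 3.46% of the sequence in WT spermatocytes and 4.83% in WT round spermatids. The BD1del lists of the same stages covered 6.18% and 5.66%. Going by their names, the WT and BD1del lists came from different read sets, F3 tags alone or F3 with F5 tags. Genotype and read set therefore cannot be told apart in anything below.

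All 3 windows were densely covered in WT, at both stages, and most of all in spermatocytes. In WT spermatocytes islands covered 12.6% of the chromosome 2 window, 16.8% of the chromosome 4 window and 15.1% of the chromosome 13 window. Their flanks were covered to 2.37%, 3.09% and 3.39%, so the windows held 5.30, 5.46 and 4.45 times the covered share of the flanks. In WT round spermatids the windows were covered to 11.7%, 10.9% and 8.89% and the flanks to 4.99%, 4.54% and 4.88%, which made ratios of 2.35, 2.41 and 1.82. The lower ratios at the later stage came with denser flanks as well as less dense windows. The autosomes were cut into 794 bins of 3 Mb, with a median cover of 2.38% and 4.05% in these lists. Of these bins, 10 or 11 were more covered than each window in spermatocytes and 17 to 32 in round spermatids. These ranks are descriptive, since the windows were chosen with earlier results of these data known.

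In BD1del the windows were less alike: the chromosome 4 window was dense at both stages. Relative to WT, the covered share was closer to the flanks on chromosome 2 at both stages and on chromosome 13 mainly in spermatocytes. In BD1del spermatocytes islands covered 6.75%, 17.6% and 6.58% of the windows of chromosomes 2, 4 and 13, against 5.91%, 5.28% and 5.14% of the flanks. The ratios were 1.14, 3.33 and 1.28. In BD1del round spermatids the windows were covered to 5.93%, 12.0% and 7.75%, the flanks to 6.29%, 5.75% and 4.61%, with ratios of 0.943, 2.08 and 1.68. On chromosome 13 the ratio of 1.68 was near the 1.82 of WT round spermatids. It was above WT with an FDR of at most 1e-10 (1.40 against 1.01) and with a fold of at least 2 (1.36 against 0.998). These limits cut the lists unequally, so the values are not at like strictness. The FDR limit kept 153 of 215 BD1del and 18 of 120 WT islands of this window, and the fold limit 199 and 65. On chromosome 4 only 3 of the 794 autosomal bins were more covered than the window in BD1del spermatocytes, and 23 were in the BD1del round spermatids. On chromosomes 2 and 13, 164 and 189 bins were more covered in BD1del spermatocytes and 228 and 75 in the BD1del round spermatids.

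**Figure D1:**
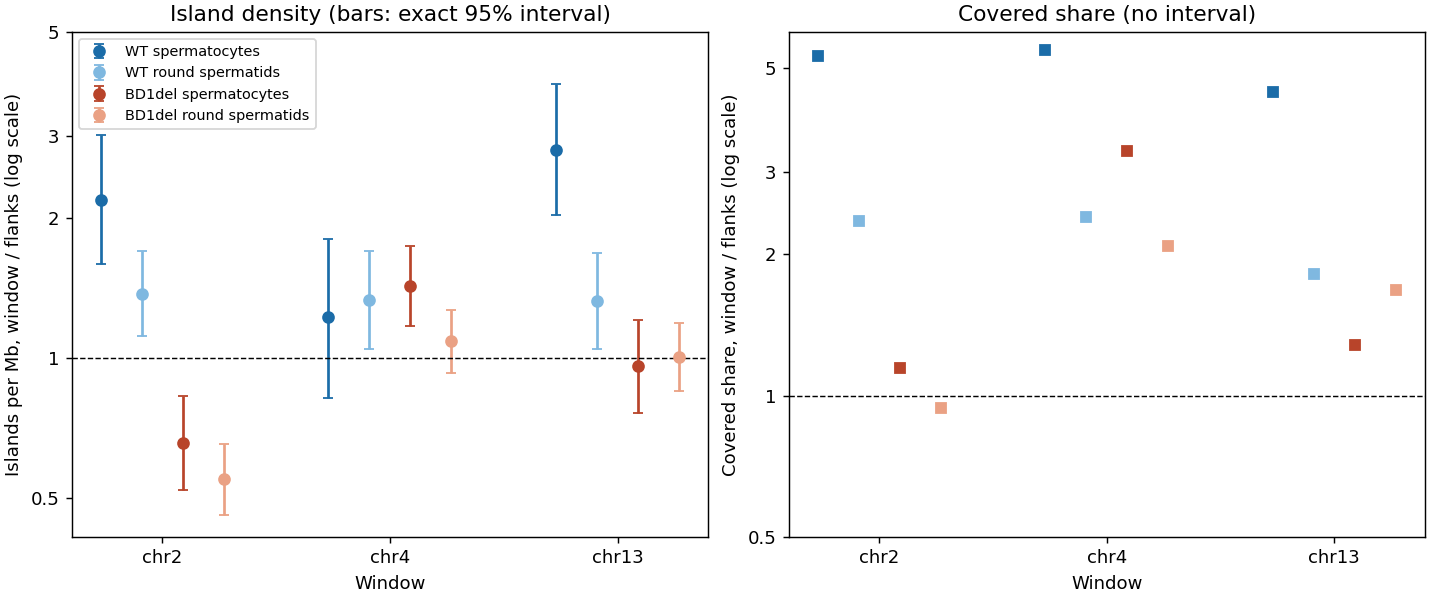
Islands per Mb (left) and covered share (right) of each window divided by the value of its flanks, for the 4 lists, on log axes with a dashed line at 1; bars on the left are exact 95% intervals and the covered share has none. WT spermatocytes lie highest in covered share in every window, and both BD1del lists lie below 1 in island density on chromosome 2.

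The number of islands showed less contrast than the covered share, and islands in the windows were also longer. In WT spermatocytes the chromosome 2 window had 26.6 islands per Mb against 12.2 in its flanks, a ratio of 2.18 (1.59 to 3.01). The chromosome 13 window had 31.7 against 11.3, a ratio of 2.79 (2.03 to 3.87). The chromosome 4 window had 14.7 against 12.0, a ratio of 1.22 (0.820 to 1.80), whose interval includes 1; it was 0.936 against the upstream flank alone and 1.76 (1.05 to 3.001) against the downstream one. The median island of the chromosome 4 window was 5500 bases long in this list, against 2100 in its flanks, and 16 of its 44 islands spanned at least 10 kb, where none of the 72 flank islands did. In WT round spermatids the ratios were 1.37 (1.11 to 1.69), 1.33 (1.04 to 1.70) and 1.33 (1.04 to 1.68) on chromosomes 2, 4 and 13, with intervals just above 1. None of these 3 held under a limit on FDR or fold: the ratios were 0.343, 0.885 and 0.621 for islands with an FDR of at most 1e-10 and 0.634, 0.803 and 0.949 for islands of a fold of at least 2. With the 10000 islands of lowest p they were 0.185, 1.20 (0.588 to 2.37) and 0.522. The interval also included 1 on chromosome 4 with flanks of 1 Mb (0.9501 to 1.83) or the upstream flank alone (0.856 to 1.48), and on chromosome 13 with the downstream flank alone (0.966 to 1.69).

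On chromosome 2 both BD1del lists had fewer islands per Mb in the window than in its flanks, where both WT lists had more when all islands were counted. The ratio was 0.658 (0.520 to 0.828) in BD1del spermatocytes, from 104 islands in the window and 271 in the flanks, and 0.550 (0.460 to 0.655) in BD1del round spermatids, from 170 and 530. Limited to an FDR of 1e-10 or lower, to folds from 2 upwards or to the 10000 islands of lowest p, WT also fell below its flanks there, to 0.643, 0.392 and 0.643 in spermatocytes and 0.343, 0.634 and 0.185 in round spermatids, so the genotypes then had the same direction. Both values of 0.643 rested on 9 islands in the window and 24 in the flanks, and their interval included 1 (0.263 to 1.43). The intervals of the other WT values lay below 1. On chromosome 4 the BD1del ratios were 1.43 (1.17 to 1.74) and 1.09 (0.930 to 1.26). With an FDR of at most 1e-10 they were 0.701 (0.515 to 0.944) and 0.611 (0.494 to 0.751). With a fold of at least 2 they were 0.765 (0.592 to 0.982) and 0.747 (0.625 to 0.889). With the 10000 islands of lowest p they were 0.947 and 0.476, with intervals that included 1. The excess in BD1del spermatocytes thus held under none of these limits. On chromosome 13 the BD1del ratios with all islands were 0.962 (0.761 to 1.21) and 1.01 (0.851 to 1.19), and both intervals included 1. In BD1del spermatocytes the ratio was 0.790 (0.612 to 1.02) against the upstream flank alone and 1.23 (0.924 to 1.64) against the downstream one. With an FDR of at most 1e-10 it was 0.688 (0.497 to 0.939) in that list and 0.927 (0.760 to 1.13) in BD1del round spermatids.

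Along chromosome 2 the BD1del lists were nearly empty in a single stretch. From 175 to 176.75 Mb, limits that were chosen after the profile was seen, WT spermatocytes had 48 islands that covered 12.9% and WT round spermatids had 77 that covered 10.7%. In the same 1.75 Mb BD1del spermatocytes had 7 islands that covered 0.720% and BD1del round spermatids had 19 that covered 0.949%. Of 1371 autosomal stretches of this length, 4 had as few islands in BD1del spermatocytes, where the median was 75, and 5 in the BD1del round spermatids, where the median was 139. The few BD1del islands that were called there had median folds of 5.48 and 8.95 and few control reads, at 38.7 and 30.2 per kb. Reads outside islands are not in the lists, so the total number of reads in the stretch was not analysed here. How reads that map to several places were treated is not given in the sources used here, and its part in the gap was not tested.

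Distal to this stretch, from 176.75 to 178 Mb, all 4 lists were dense and close to each other, at 14.4% in both WT lists, 15.3% in BD1del spermatocytes and 11.7% in the BD1del round spermatids. The bin from 177.5 to 177.75 Mb had a cover of 26.4% in WT spermatocytes and 26.2% in BD1del spermatocytes, and of 15.2% and 17.4% in the round spermatids of WT and BD1del. Without the nearly empty stretch the island density of the window relative to its flanks was 1.23 in BD1del spermatocytes and 0.977 in the BD1del round spermatids, and the covered share relative to the flanks was 2.16 and 1.73. These values rise by construction, since the stretch was picked for its low cover in BD1del. In WT the same step moved the density ratio from 2.18 to 2.11 in spermatocytes and from 1.37 to 1.47 in round spermatids, and the covered share relative to the flanks was 5.16 and 2.56, still above the BD1del values.

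**Figure D2:**
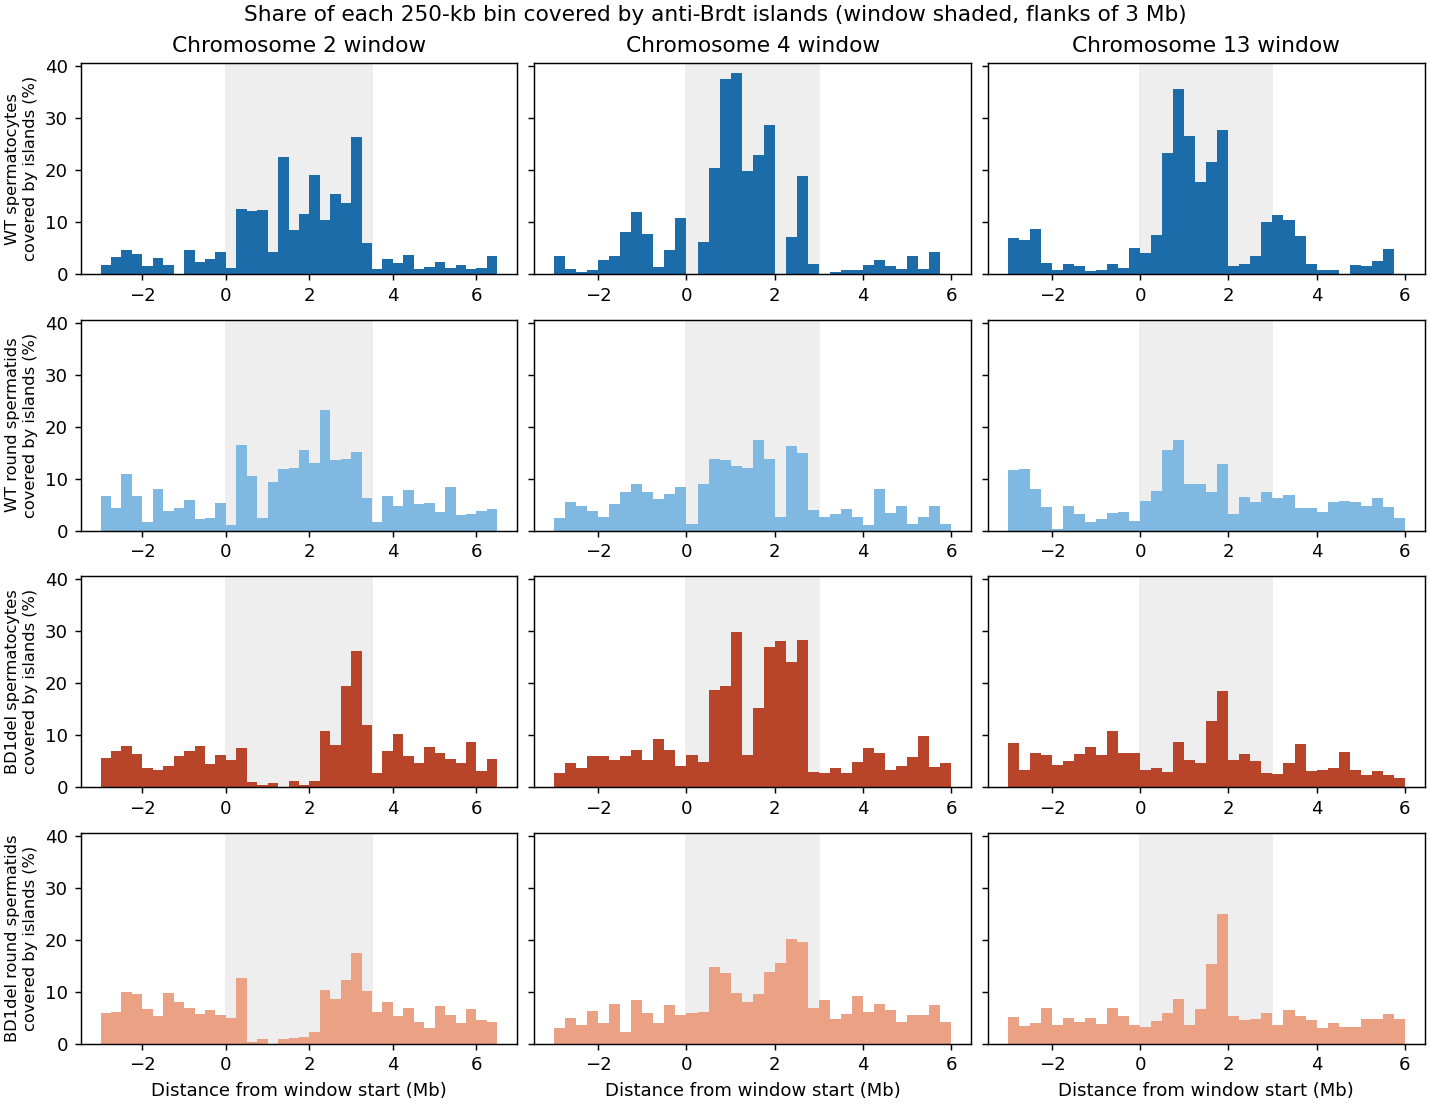
Share of each 250-kb bin covered by islands (y axis, percent) against distance from the window start in Mb (x axis), for the 3 windows (columns, window shaded) and the 4 lists (rows). The BD1del rows fall to 2.24% or less between 0.5 and 2.25 Mb of the chromosome 2 window, while the WT rows reach 22.6% and 15.5% there.

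On chromosome 4 the dense part ran from 145 to 147.25 Mb in both genotypes with all islands counted, limits chosen after the profile was seen. There islands covered 21.6% in WT spermatocytes and 21.8% in BD1del spermatocytes, and 12.99% and 13.9% in the round spermatids of WT and BD1del. Over this part as a whole spermatocytes were thus denser than round spermatids in each genotype and the genotypes were close at each stage. Single bins differed more between the genotypes. In WT spermatocytes the bins from 145.25 to 146 Mb were covered to 37.6%, 38.6% and 19.9%. In BD1del spermatocytes they were covered to 19.4%, 29.8% and 6.16%. The bin from 146.75 to 147 Mb went the other way, at 7.04% in WT and 24.2% in BD1del spermatocytes. The first part of the window, from 144.5 to 145 Mb, was covered to between 3.04% and 5.96% in the 4 lists. Within the dense part, the bin from 146.5 to 146.75 Mb held no island in WT spermatocytes and was covered to 2.72% in WT round spermatids, but to 28.1% and 15.6% in the BD1del lists. This is the opposite order of the genotypes from that of the stretch on chromosome 2. Islands in this bin held 167 and 118 control reads per kb in BD1del spermatocytes and round spermatids, and 97.7 in WT round spermatids. In the chromosome 2 stretch the BD1del values were 38.7 and 30.2. The bins named here, too, were picked after the profile was seen.

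On chromosome 13 WT spermatocytes were dense from 65.5 to 67 Mb and the BD1del lists only in the later part of that stretch. From 65.5 to 66.5 Mb islands covered 25.8% in WT spermatocytes, 12.7% in WT round spermatids, 5.36% in BD1del spermatocytes and 6.18% in the BD1del round spermatids. From 66.5 to 67 Mb the values were 24.6%, 10.1%, 15.6% and 20.1%, so that BD1del round spermatids were above WT round spermatids. From 67 Mb to the end of the window all lists were between 4.26% and 5.66%. These limits, too, were chosen after the profile was seen.

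In all 4 lists the median deposited fold over control was lower in window islands than in flank islands. The median fold in the chromosome 2 window was 1.38, 1.82, 2.31 and 4.08 in WT spermatocytes, WT round spermatids, BD1del spermatocytes and BD1del round spermatids, against 1.95, 3.11, 4.25 and 7.10 in its flanks. On chromosome 4 it was 1.49, 1.95, 2.02 and 2.96 against 1.71, 2.81, 4.23 and 7.94. On chromosome 13 the gap was narrower, at 1.53, 2.14, 3.01 and 6.03 against 1.63, 2.62, 3.96 and 6.93. The order held in all 12 pairs of window and flank. Folds of different lists are not directly comparable, since the depth of ChIP and control libraries differed.

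Counted by a fold of at least 2, the windows had a smaller share of such islands than their list as a whole, while the flanks had at least as large a share. In WT spermatocytes 35 of the 232 window islands reached a fold of 2 (15.1%), against 29.2% of all islands of that list and 40.4% of the flank islands. In WT round spermatids 188 of 402 did (46.8%), against 75.3% of all and 81.5% of flank islands. In BD1del spermatocytes 239 of 392 did (61.0%), against 93.5% and 94.3%. In BD1del round spermatids 520 of 646 did (80.5%), against 98.3% and 99.1%.

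When islands of a fold of at least 2 were taken alone, the covered share was below that of the flanks in 8 of the 12 combinations of window and list. Of these, 7 were above their flanks with all islands, and BD1del round spermatids on chromosome 2 were below in both counts. In WT spermatocytes they covered 0.269% of the chromosome 2 window and 0.757% of its flanks, and 0.687% and 0.843% on chromosome 4. The chromosome 13 window was the exception in that list, at 1.58% against 0.580%, a ratio of 2.72. In WT round spermatids the windows of chromosomes 2, 4 and 13 were covered to 3.06%, 3.71% and 2.89%, against 4.10%, 2.94% and 2.90%. In BD1del spermatocytes all 3 windows were below their flanks, with ratios of 0.589, 0.974 and 0.855, and in BD1del round spermatids the ratios were 0.675, 1.05 and 1.36. With a deposited FDR of at most 1e-10 the WT spermatocyte ratio of covered share was 0.751 on chromosome 2, 7.45 on chromosome 4 and 10.1 on chromosome 13. The chromosome 2 window was thus above its flanks in WT only when weak islands were counted. The chromosome 13 window in WT spermatocytes was above its flanks in covered share under both limits, though the ratio moved from 4.45 to 10.1 and 2.72, and the interval of its island density at a fold of at least 2 included 1 (1.90, 0.959 to 3.75).

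**Figure D3:**
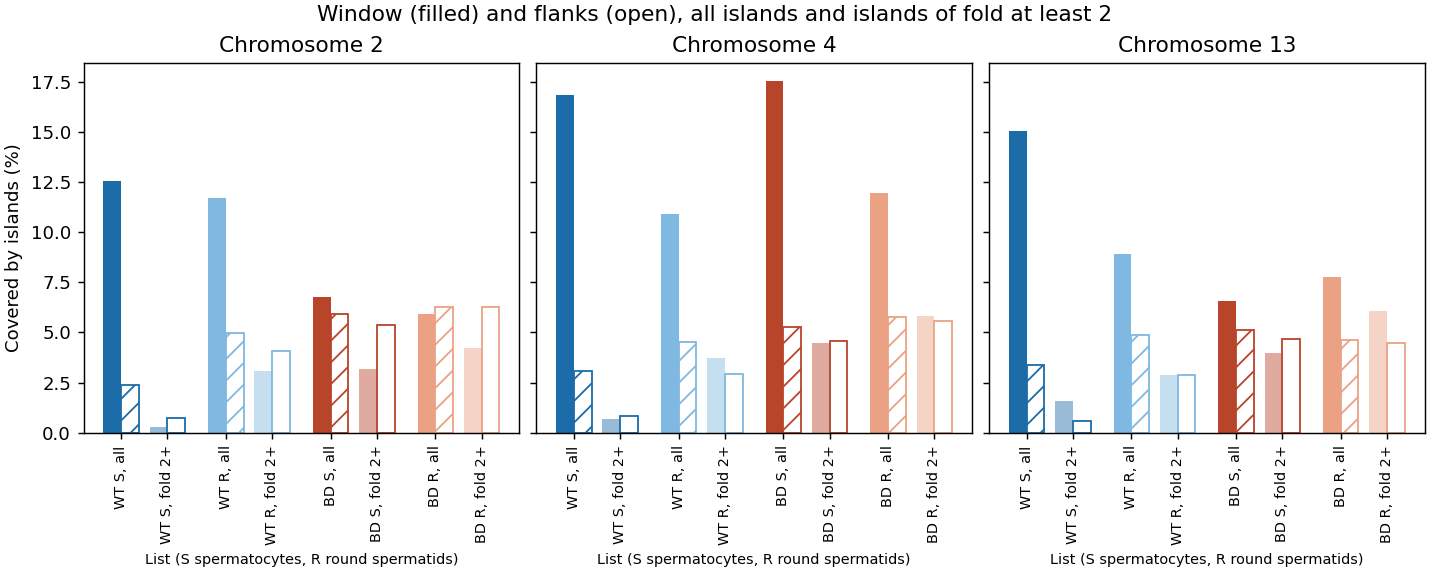
Share covered by islands (y axis, percent) in each window (filled bars) and its flanks (outlined bars), for all islands (flanks hatched) and for islands of a fold of at least 2 (paler, flanks not hatched), in the 4 lists; WT, wild type; BD, BD1del; S, spermatocytes; R, round spermatids. At a fold of at least 2 the window exceeds its flanks on chromosome 13 in WT spermatocytes (1.58% against 0.580%) and BD1del round spermatids (6.06% against 4.45%) and by less on chromosome 4 in both round spermatid lists.

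Control reads were also denser in window islands, by about the same factor in every list on chromosome 4. There islands held 80.5, 76.9, 112 and 90.3 control reads per kb in WT spermatocytes, WT round spermatids, BD1del spermatocytes and BD1del round spermatids, against 40.7, 40.2, 48.0 and 40.2 in the flanks. On chromosome 2 the values were 49.2, 49.7, 71.8 and 56.4 against 43.98, 38.0, 49.8 and 42.5. On chromosome 13 they were 44.1, 45.5, 63.7 and 51.9 against 44.6, 41.5, 51.3 and 46.4, so that WT spermatocytes had no excess of control reads there. The part of these control reads, which come from input chromatin, in the cover of the windows was not tested.

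The longest islands of the windows had folds below 1.5 in every list. The longest was on chromosome 4, 145246401 to 145327000, in WT spermatocytes, 80.6 kb with 5253 ChIP and 8829 control reads and a fold of 1.06. Islands of WT round spermatids covered 15.1% of it, those of BD1del spermatocytes 13.2% and those of BD1del round spermatids 20.1%. Without it the covered share of the chromosome 4 window in WT spermatocytes was 14.2%, still 4.59 times that of the flanks. On chromosome 2 the longest island of that list, 176239801 to 176261400, spanned 21.6 kb, had a fold of 1.18, was covered to 12.96% in BD1del spermatocytes and held no island of BD1del round spermatids. On chromosome 13 the longest, 66809201 to 66828200, spanned 19 kb, had a fold of 1.46 and lay to 55.8% under islands in WT and 54.7% in BD1del round spermatids, but to 7.37% in BD1del spermatocytes.

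The islands of highest fold in the windows were at most 1.4 kb long, and 6 of the 12 that led their window and list met no island of another list, where 24.2% to 77.7% of all islands did so, depending on the list. Among islands with at least 10 control reads, the highest fold in WT spermatocytes was 6.44 on chromosome 2 (176712401 to 176712800), 5.64 on chromosome 4 (144889001 to 144889600) and 6.68 on chromosome 13 (67586201 to 67587600). The first of these met no island of another list. The chromosome 4 site was also the one of highest fold in BD1del spermatocytes, at 14.8 (144889001 to 144890000), and it lay outside the dense part of the window. In WT round spermatids the leading islands had folds of 6.86, 8.26 and 10.7 on chromosomes 2, 4 and 13, and none of them met an island of any other list. In BD1del round spermatids the leading folds were 14.7, 19.9 and 15.0. The island at 19.9, on chromosome 4, 147328601 to 147329800, met one of fold 6.39 in BD1del spermatocytes and one of 1.25 in WT spermatocytes, and no island of WT round spermatids. In BD1del spermatocytes the leading island on chromosome 2, 176773601 to 176774000, with a fold of 10.96, met islands of all other lists.

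With all islands and the 3 windows pooled, islands of the windows met islands of the other list more often than flank islands did in all 8 directions counted, and in 5 of them the intervals of windows and flanks were apart. For the stages in WT, 112 of 232 spermatocyte islands in the windows met a round spermatid island (48.3%, 41.7 to 54.9%), against 45.1% in the flanks and 58.9% of the whole list. In the other direction 135 of 402 round spermatid islands were met (33.6%, 29.0 to 38.4%), against 17.1% and 30.3%. In BD1del, 133 of 392 spermatocyte islands met a round spermatid island (33.9%, 29.3 to 38.9%), against 21.2% in the flanks and 24.2% of the list. In the other direction 145 of 646 were met (22.4%, 19.3 to 25.9%), against 11.1% and 13.9%. The part of the denser cover of the windows in these shares was not tested. When 50% of an island had to be covered, the share of WT spermatocyte islands was below that of the flanks, at 26.7% against 33.8%, as it was under the limits on FDR and fold. With an FDR of at most 1e-10 both BD1del shares were below the flanks as well (12.8% against 15.9% and 5.71% against 7.32%), and with a fold of at least 2 so was that of WT round spermatids (5.85% against 6.77%). By chromosome, WT spermatocyte islands on chromosome 13 were met less often than in the flanks, at 40.0% against 50%.

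Between the genotypes, 70 of 232 WT spermatocyte islands in the windows met a BD1del spermatocyte island (30.2%, 24.3 to 36.5%), against 20.7% in the flanks and 35.0% of the list. Of the BD1del spermatocyte islands 106 of 392 met a WT one (27.0%, 22.7 to 31.7%), against 6.13% and 11.9%. In round spermatids 114 of 402 WT islands were met (28.4%, 24.0 to 33.0%), against 20.5% and 29.1%, and 123 of 646 BD1del islands (19.04%, 16.1 to 22.3%), against 8.34% and 11.2%. By window, WT spermatocyte islands met BD1del ones most often on chromosome 4, in 25 of 44 cases (56.8%), and in 24.7% and 23.2% of cases on chromosomes 2 and 13. In WT round spermatids the shares were 38.8% (29.9 to 48.3%) on chromosome 4, 19.9% on chromosome 2 and 30.0% on chromosome 13. On chromosome 2 both WT shares were below those of the flanks, 27.4% and 21.7%. WT islands of the chromosome 4 window thus met BD1del more often than WT islands did genome-wide, which did not hold for the 3 windows pooled, and BD1del islands of the windows met WT more often than BD1del islands did genome-wide. WT islands of the chromosome 4 window were also longer, with a median of 5500 bases in spermatocytes and 2000 in round spermatids. Over the autosomes the medians were 2200 and 1400. The part of length and of denser cover in these shares was not tested.

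**Figure D4:**
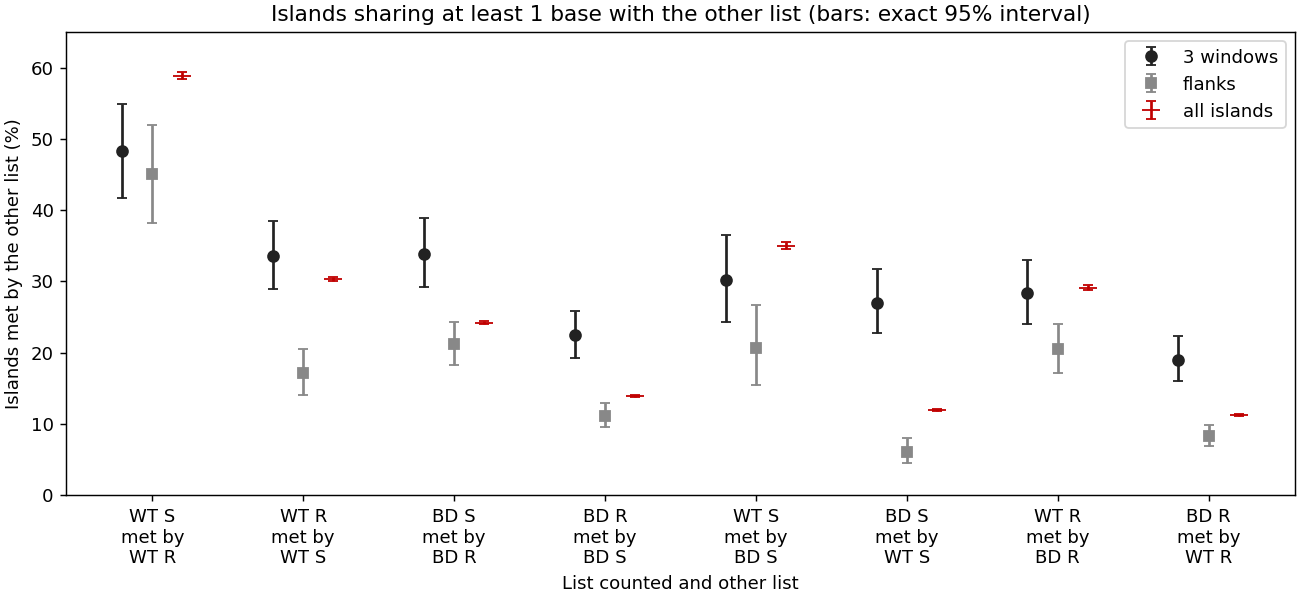
Percent of islands that overlap the other list by at least 1 base (y axis) for the islands of the 3 windows, of the flanks and of the whole list, in 8 directions (x axis; WT, wild type; BD, BD1del; S, spermatocytes; R, round spermatids), with exact 95% intervals. The widest gap between windows and flanks is for BD1del spermatocyte islands met by WT spermatocytes, at 27.0% against 6.13%.

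Among WT spermatocyte islands, those found in all 4 lists were most frequent on chromosome 4. Of the WT spermatocyte islands in the windows, 39 of 232 had a partner in every other list (16.8%, 12.2 to 22.3%), against 6.10% in the flanks and 19.9% of the whole list. They were 19 of 44 on chromosome 4, 13 of 93 on chromosome 2 and 7 of 95 on chromosome 13. WT spermatocyte islands of the chromosome 4 window were also longer, with a median of 5500 bases against 3800 in each of the other windows. The part of length in these counts was not tested. The 3 shared islands of highest fold in WT spermatocytes on chromosome 4 were at 145939001 to 145945800, 147220001 to 147223200 and 146476601 to 146491200, with folds of 2.69, 2.55 and 1.79. At the first of these the islands met had folds of 3.02 in WT round spermatids, 4.65 in BD1del spermatocytes and 3.18 in the BD1del round spermatids. On chromosome 2 the leading shared island was 176772601 to 176773800, just distal to the stretch that was nearly empty in BD1del, with a fold of 1.95. On chromosome 13 it was 65965801 to 65972600, with a fold of 2.18. In the 3 windows together the share with a partner in every list was 8.21% in WT round spermatids, 7.65% in BD1del spermatocytes and 4.64% in the BD1del round spermatids, against 9.65%, 6.26% and 3.52% over those lists and 1.96%, 1.33% and 0.765% in the flanks. At the other end, 79 of the 232 islands (34.1%, 28.0 to 40.5%) met no other list, against 33.8% in the flanks and 24.2% of the list. In the other lists private islands were rarer in the windows than in the flanks: 45.3% against 61.4% in WT round spermatids, 45.2% against 70.2% in BD1del spermatocytes and 57.7% against 80.4% in BD1del round spermatids. Over the whole lists these shares were 48.9%, 67.4% and 77.7%.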

How the data were processed

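The 4 lists hold SICER islands on mm9 (tool and build per the submitters' processing notes); the names of the lists give a window of 200 and a gap of 600 bases. The aligner, read filters, duplicate treatment and the input used as control are not given in the sources used here. The ChIP and control values are raw read counts per island as deposited by the authors. The p-value and FDR were deposited by the authors with the lists, with FDR under 0.01. The fold is the deposited ratio of ChIP to control reads, which from the values is scaled by 1 factor per list. From these, islands per Mb, covered share, overlap (at least 1 base) and exact 95% intervals (scipy 1.17.1, pandas 2.3.3, Python 3.11.15) were computed; the measures were tested on simulated islands. An island belonged to the region that holds its start. Depth is given as reads in islands, since library totals were not known. The named islands were, per window and list, the one of highest fold (among those with 10 control reads or more), the longest and that with most ChIP reads, and those of wild-type spermatocytes that meet all other lists. The windows, the gene landmarks and the lists were chosen with earlier results of these data known. Alternatives were a stricter FDR (1e-10), islands with fold 2 or more, the 10000 islands of lowest p, flanks of 1 Mb or on 1 side, bases clipped at limits, overlap of at least 50% and islands of at least 1000 bases. Promoter sequences come from RefSeq, GRCm38.p6.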

Additional observations from a re-analysis of the deposited data

Results flagged for a closer look

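The island density of the chromosome 2 window relative to its flanks went in opposite directions in the 2 genotypes when all islands were counted: in spermatocytes it was 2.18 in wild type and 0.658 in BD1del, and in round spermatids 1.37 and 0.550. With an FDR of at most 1e-10 it was below 1 in wild type too (0.643 and 0.343), as under the fold and lowest-p limits. The interval of the 0.643 in wild-type spermatocytes included 1 (0.263 to 1.43). Without 175 to 176.75 Mb the density ratio was 1.23 in BD1del spermatocytes. With 1 library per group the difference was not tested, and genotype and read set cannot be told apart.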

How the results depend on the processing

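Values are relative to the flanks and in the order wild-type spermatocytes, wild-type round spermatids, BD1del spermatocytes, BD1del round spermatids. A density was taken as moved when it left its 95% interval and a covered share when it moved by more than 1.5 times; why values moved was not tested. With an FDR of at most 1e-10 the island density was 0.643, 0.343, 0.353 and 0.383 on chromosome 2, 1.64, 0.885, 0.701 and 0.611 on chromosome 4, and 3.69, 0.621, 0.688 and 0.927 on chromosome 13. With a fold of at least 2 it was 0.392, 0.634, 0.432 and 0.467, then 0.516, 0.803, 0.765 and 0.747, then 1.90, 0.949, 0.782 and 0.943. With the 10000 islands of lowest p, which left 4 to 25 islands in a window and 14 to 37 in its flanks, it was 0.643, 0.185, 0.274 and 0.276, then 1.44, 1.20, 0.947 and 0.476, then 3.57, 0.522, 0.632 and 0.444. Of the values with flanks of 1 Mb or on 1 side, 1 left the interval of the value with both flanks: the chromosome 13 window in BD1del spermatocytes, at 1.23 with the downstream flank alone. Wild-type spermatocytes on chromosome 4 were at 0.936 with the upstream and 1.76 (1.05 to 3.001) with the downstream flank, and the intervals of wild-type round spermatids came to include 1 on chromosome 4 with flanks of 1 Mb or upstream and on chromosome 13 downstream.

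The covered share, whose alternatives other than clipping were chosen after seeing the data, was 0.751, 0.347, 0.640 and 0.565 on chromosome 2, 7.45, 3.95, 1.13 and 0.926 on chromosome 4, and 10.1, 1.01, 0.703 and 1.40 on chromosome 13 under the FDR limit. Under the fold limit it was 0.355, 0.747, 0.589 and 0.675, then 0.814, 1.26, 0.974 and 1.05, then 2.72, 0.998, 0.855 and 1.36. Clipping at the limits and leaving out the longest island of each window moved none of the 12 ratios by over 1.5 times. Without 175 to 176.75 Mb of chromosome 2, chosen after seeing the data, the density was 1.23 and 0.977 and the covered share 2.16 and 1.73 in the BD1del lists. Control reads per kb and median fold stayed within 1.5 times of their ratios with islands of at least 1000 bases.

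Of the overlaps in the 3 windows, the share of wild-type spermatocyte islands met by wild-type round spermatids was 26.7% when 50% of the island had to be covered, 25.5% under the FDR limit and 31.4% under the fold limit, and below that of the flanks under each. In the other direction it was 23.6% and 5.85% under the FDR and fold limits, the latter below the flanks. In BD1del the shares were 16.3%, 12.8% and 22.2% for spermatocyte islands and 18.7%, 5.71% and 10.8% for round spermatid islands, and under the FDR limit both were below the flanks. Between genotypes, wild-type spermatocyte islands were met in 11.6% of cases at 50%, and BD1del spermatocyte islands in 14.1% and 4.18% under the FDR and fold limits. Wild-type round spermatid islands were met in 11.9% at 50% and 20.2% at a fold of at least 2, and BD1del round spermatid islands in 14.6%, 4.08% and 7.69%. No paired analysis was possible because each group had 1 library and no test was made. Leaving unknown bases of mm9 out of the spans was not run, since no genome of that build was used here.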
